A study of Homo sapiens with 6 samples.

Results

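Nuclear receptors are transcription factors that bind small lipid-soluble ligands, such as steroids, retinoids, bile acids and oxysterols, and some bind DNA with no known natural ligand. Most sit on repeated hexamers close to AGGTCA, alone, as homodimers or as heterodimers with a retinoid X receptor, and exchange corepressors for coactivators when a ligand binds. In liver cells they set bile acid, lipid, glucose and drug metabolism, and PELP1 is known as a coregulator of steroid hormone receptors. The 45 nuclear receptor genes described here were taken from a given list of gene symbols that does not hold every human nuclear receptor. The rule uses no measured value, although the list was drawn up with earlier results of these data known. All 45 were found among the 23228 genes of the deposited tables, and 35 of them were among the 14537 genes with enough reads to test.

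The RNA came from Hep3B, an established human hepatocellular carcinoma cell line, grown in RPMI medium. Control cells (3 libraries) were transduced with lentivirus carrying a non-targeting short hairpin RNA (shRNA), and PELP1-KD cells (3 libraries) with lentivirus carrying shRNA against PELP1. The KD libraries' titles point to the first PELP1 shRNA, whereas the protocol names both PELP1 shRNAs, so the hairpin behind each library is not certain. Stable KD clones were selected with puromycin and pooled, so that each group is a mixed population of 1 line. The labels disagree on how RNA was extracted, on the use of mRNA selection or of ribosomal RNA removal, and on single or paired reads. Nothing states that replicates were separate cultures, so the p values below measure the spread between these libraries, which may be technical.

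The libraries held from 26758363 to 34456542 reads on genes. At these depths 0 reads for a gene allow up to 0.0871 to 0.112 RPM (reads per 1e6 reads, taking 3 reads as the limit, counting error only). The targeted gene, PELP1, had 4893, 4914 and 5102 normalized reads (reads scaled to a common library size) in control and 4421, 4825 and 4840 in PELP1-KD. The KD values lay below the control values, and the KD mean was 94.5% of control (log2 fold change −0.08, SE 0.04, adjusted p = 0.101 from edgeR's quasi-likelihood test). PELP1 RNA was therefore not called lower here, although it was called with the replicate number as a block (adjusted p = 0.0106) and without replicate 3 of PELP1-KD (adjusted p = 0.0180). The paper reports lower PELP1 protein by Western blot in Hep3B knockdown cells, which is a different measure from the RNA of these libraries. Directions below refer to the libraries labelled PELP1-KD. All 9 hepatocyte and hepatoma markers checked were expressed, and summed to 28470 to 28940 RPM in control and 24980 to 25510 in PELP1-KD. Among markers of other cell types, the leukocyte list summed to 173 to 186 against 107 to 109 RPM, with 3 of its 5 genes at 10 reads or fewer in every library. The 4 endothelial markers summed to 2.00 to 2.32 against 1.93 to 2.15, with CDH5 and KDR at 0, and the 5 fibroblast and stellate markers to 19.5 to 22.5 against 23.7 to 26.4. The part of these lists in the results below was not tested.

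Of the 35 tested nuclear receptor genes, 11 were higher in PELP1-KD at an adjusted p below 0.05, where 26.8% of all tested genes were higher. Lower expression was called for 6 of them, against a background of 26.8% lower. At least 2-fold changes were called for 0 receptors upward (background 2.85%) and for 3 downward (background 4.79%), namely NR0B2, ESRRG and NR2F1. The control and KD values did not overlap for 12 receptors that were higher (background 29.5%) and for 6 that were lower (background 29.3%). The 12 were the 11 called genes and NR6A1. The receptors' median log2 fold change was 0.06, from −2.23 to 0.91, and that of all tested genes was 0.004. Their median absolute change was 0.18 on the log2 scale, and that of all tested genes 0.20. Called in either direction were 48.6% of the tested receptors and 53.6% of all tested genes, so the family did not stand out by how often its genes were called, and the results below concern single receptors. In bulk RNA, fewer cells expressing a gene and less RNA per cell cannot be told apart.

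**Figure D1:**
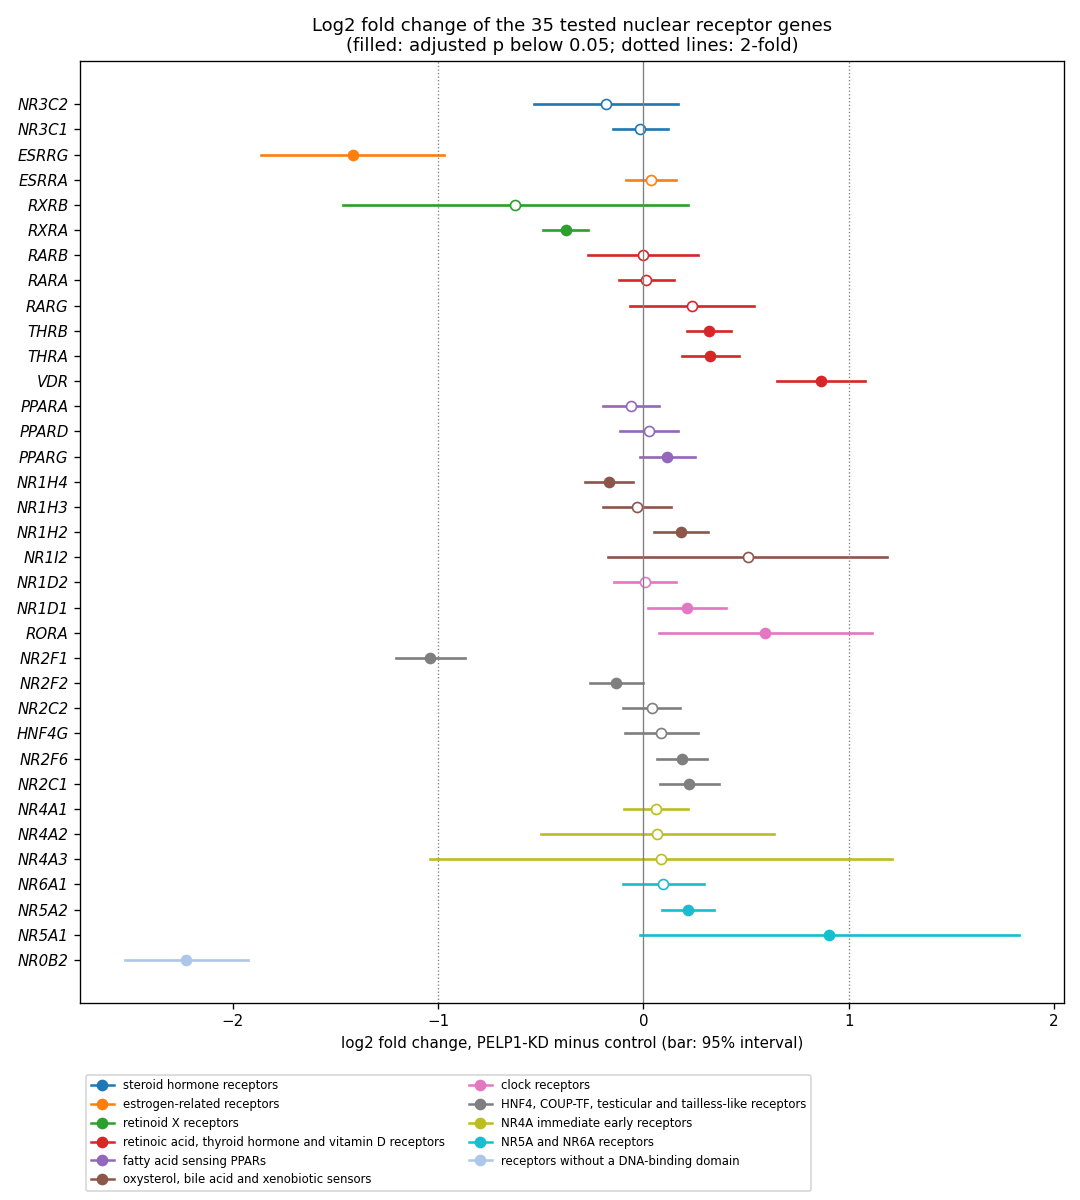
Log2 fold change (PELP1-KD minus control, x axis) of the 35 tested nuclear receptor genes, grouped by role. Bars are 95% intervals with 4 residual degrees of freedom, which are wider than the moderated test, and filled points have an adjusted p below 0.05. NR0B2, ESRRG and NR2F1 lie past the 2-fold line on the left, and no receptor lies past it on the right.

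Levels between genes were compared per exon length, as RPKM (reads per kilobase of exon and 1e6 reads), in 34 receptors. RXRB was left out, since it has exons on 6 sequences of hg19, chromosome 6 haplotypes included. How reads that match several of these copies entered its count was not tested. Control levels of the 34 receptors ran from 0.0569 to 123 RPKM with a median of 7.20, and 27 reached 1 RPKM and 12 reached 10 RPKM. NR2F6 stood first at 123 ± 4.48 RPKM (SD, n = 3), followed by NR1H4 at 43.3 ± 1.45, ESRRA at 34.0 ± 0.811, RXRA at 30.9 ± 0.787 and NR1H2 at 25.6 ± 0.223. These neighbours did not overlap between control libraries. Further down, THRB at 11.3 ± 0.194 and NR5A2 at 11.6 ± 0.202 RPKM lay within their spread of each other. The summed level of 44 receptors was 438.5 ± 6.37 RPKM in control and 446.9 ± 13.4 in PELP1-KD (SD, n = 3 each). NR2F6 made up 28.1% ± 0.685 of this sum in control and 31.4% ± 1.24 in PELP1-KD, and the 5 leading receptors together made up 58.6% ± 0.242 and 59.6% ± 1.04. Over the 28 receptors with 100 or more normalized reads on average, the median coefficient of variation between replicates was 2.78% in control and 4.45% in PELP1-KD.

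**Figure D2:**
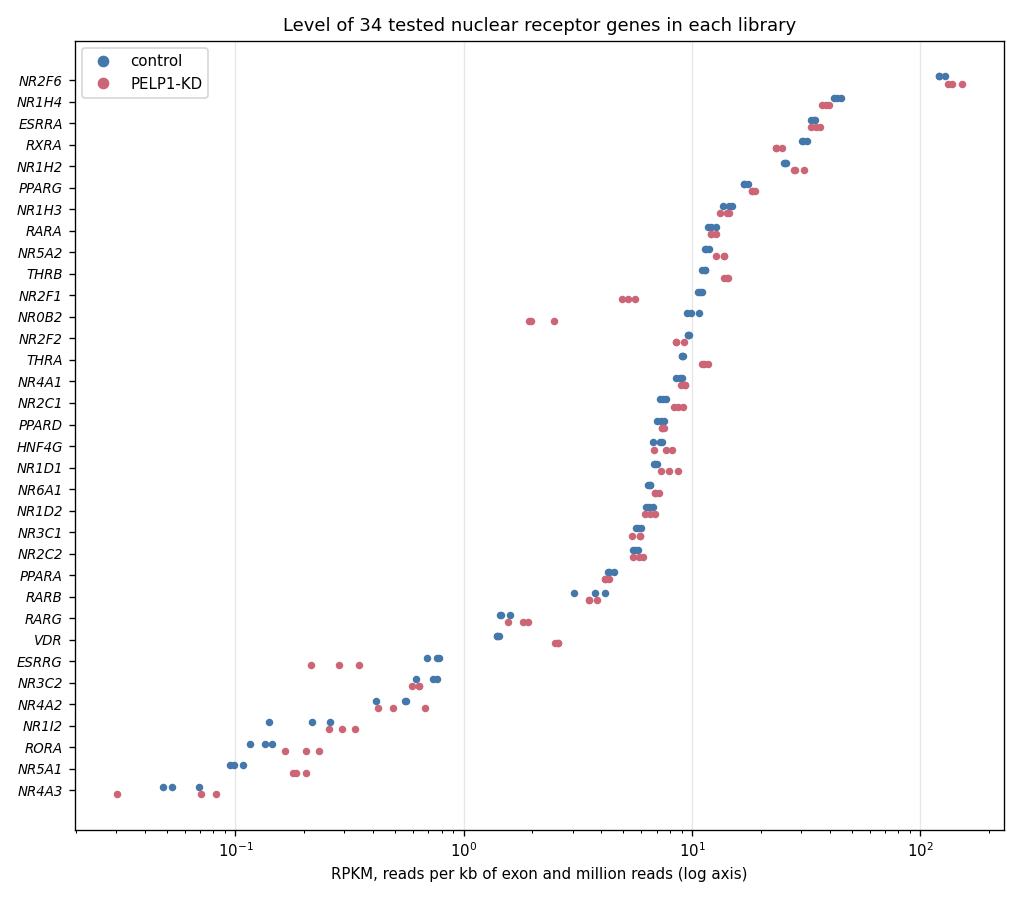
Level of 34 tested nuclear receptor genes in each of the 6 libraries, in RPKM on a log axis, ordered by the control mean. NR2F6 lies highest, at 123 RPKM in control, and NR0B2 and NR2F1 show the widest gaps between the groups among receptors above 10 RPKM.

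NR0B2 (small heterodimer partner, SHP), which lacks a DNA-binding domain and represses other receptors by binding to them, showed the largest change of the family. Its hg19 position is chromosome 1, 27237975 to 27240567, minus strand. NR0B2 had 378, 395 and 426 normalized reads in control and 78.8, 77.0 and 98.9 in PELP1-KD. All KD values were thus under the lowest control value, and their mean was 21.2% of control. The log2 fold change was −2.23 (SE 0.11, 95% interval −2.53 to −1.93, adjusted p = 1.10e-12 from edgeR), and 2.12% of all tested genes had a larger absolute change. Its share of the summed receptor level went from 2.28% ± 0.108 to 0.475% ± 0.0539 (SD, n = 3 each). NR0B1 (DAX-1), the other receptor of this form, had 0 reads in all 6 libraries.

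NR2F1 (COUP-TFI), an orphan receptor that binds direct repeats of the receptor hexamer and represses many genes, lies on chromosome 5 from 92919043 to 92929786. It had 1062, 1110 and 1087 normalized reads in control and 525, 497 and 562 in PELP1-KD. The groups were far apart relative to their spread, with KD at 48.6% of control (log2 fold change −1.04, SE 0.06, adjusted p = 1.76e-11). Its close relative NR2F2 (COUP-TFII) fell less, from 1845 ± 14.6 to 1683 ± 76.4 normalized reads (mean ± SD, n = 3 per group), with a log2 fold change of −0.13 (adjusted p = 0.0209). This call on NR2F2 was lost without replicate 1 or 2 of control and without replicate 1 or 2 of PELP1-KD (adjusted p up to 0.0998). NR2F6 (EAR2), at the highest RPKM of the 34 receptors compared, went the other way, with 6829, 6846 and 7277 normalized reads in control and 7512, 7786 and 8584 in PELP1-KD. Its lowest KD value lay above its highest control value, and the rise was small, to 114% of control (log2 fold change 0.19, SE 0.04, adjusted p = 0.00128). NR2C1 (TR2) rose by 0.22 on the log2 scale (adjusted p = 0.00122). NR2C2 (TR4) had a log2 fold change of 0.04 and HNF4G of 0.09, and neither was called (adjusted p of 0.529 and 0.258).

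The estrogen-related receptors are orphan receptors that control mitochondrial energy genes. ESRRG lies on chromosome 1 from 216676588 to 217311097 and had 149, 147 and 133 normalized reads in control against 54.3, 66.5 and 41.0 in PELP1-KD. Its KD libraries held 37.7% of the control level, with no overlap (log2 fold change −1.42, SE 0.16, adjusted p = 3.60e-07). ESRRA, on chromosome 11 from 64073044 to 64084210, had 2308, 2417 and 2390 normalized reads in control and 2319, 2438 and 2535 in PELP1-KD. Here the groups overlapped, and ESRRA was not called (log2 fold change 0.04, 95% interval −0.09 to 0.16, adjusted p = 0.519). Per exon length ESRRA was at 34.0 RPKM and ESRRG at 0.748 RPKM in control, so the member that fell was the rare one. ESRRB had 1 to 10 reads in a library and was not tested.

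**Figure D3:**
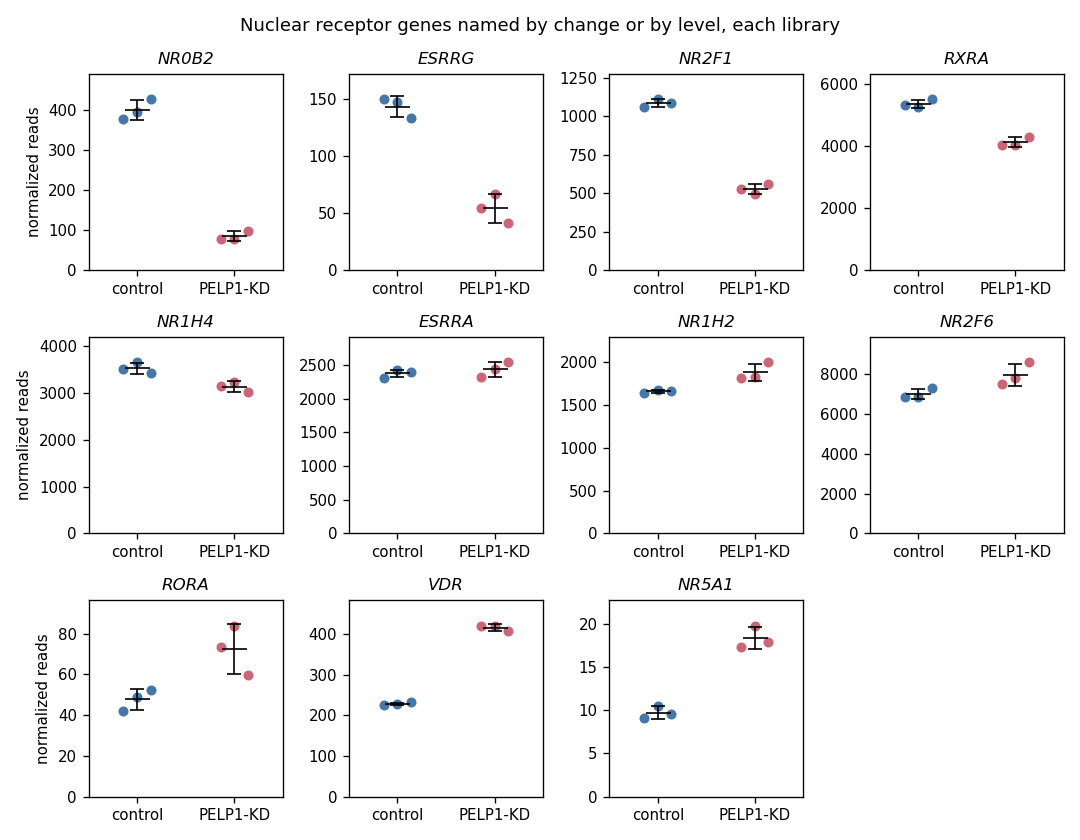
Normalized reads (y axis, from 0) of the 11 receptors named by size of change or by level, in each library. Points are libraries, and bars are the mean and SD of 3 libraries. NR0B2, ESRRG, NR2F1 and RXRA show the KD libraries clearly lower, VDR and NR5A1 higher, and ESRRA overlaps.

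RXRA, the retinoid X receptor that serves as heterodimer partner of the retinoic acid, thyroid hormone, vitamin D, PPAR, LXR, FXR and PXR receptors, lies on chromosome 9 from 137218316 to 137332431. It had 5324, 5262 and 5523 normalized reads in control and 4031, 4037 and 4312 in PELP1-KD. Every KD library was lower than every control library, at a mean of 76.8% of control (log2 fold change −0.38, SE 0.04, adjusted p = 1.13e-07). RXRB had a log2 fold change of −0.62 that was not called (adjusted p = 0.0912). Its exons on several sequences make its read count and that value uncertain. RXRG had 0 reads in all libraries.

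The receptors for hormones and vitamins that pair with RXR changed upward where they changed. VDR, the vitamin D receptor, lies on chromosome 12 from 48235320 to 48298814 and had 226, 227 and 232 normalized reads in control and 421, 421 and 408 in PELP1-KD. Replicates were close together in both groups, and the KD mean was 182% of control (log2 fold change 0.87, SE 0.08, adjusted p = 1.26e-08). THRA, a thyroid hormone receptor, rose from 996 ± 9.81 to 1247 ± 37.7 normalized reads (mean ± SD, n = 3 per group), or by 0.33 on the log2 scale (adjusted p = 1.65e-05). THRB, its paralog, rose from 2724 ± 46.8 to 3399 ± 68.2, or by 0.32 (adjusted p = 1.11e-06). The 3 retinoic acid receptors were not called: RARA had a log2 fold change of 0.01, RARB of −0.001 and RARG of 0.24 (adjusted p of 0.822, 0.992 and 0.0753). For RARA the 95% interval, from −0.12 to 0.15, limits a change to a small size, while that of RARG ran from −0.07 to 0.54.

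Among the lipid and xenobiotic sensors, NR1H4 (FXR), the bile acid receptor, lies on chromosome 12 from 100867551 to 100957645. NR1H4 had 3509, 3651 and 3416 normalized reads in control and 3144, 3241 and 3024 in PELP1-KD. The fall was small next to that of NR0B2 but without overlap, to 89.0% of control (log2 fold change −0.17, SE 0.04, adjusted p = 0.00201). NR1H2 (LXRβ), an oxysterol receptor, lies on chromosome 19 from 50879685 to 50886267 and had 1646, 1675 and 1660 normalized reads in control and 1820, 1828 and 1999 in PELP1-KD. Each KD library was higher, at a mean of 113% of control (log2 fold change 0.18, SE 0.05, adjusted p = 0.00309). NR1H3 (LXRα) had a log2 fold change of −0.03 (adjusted p = 0.668). NR1I2 (PXR), the xenobiotic receptor, was rare, at 29.5 ± 8.66 and 42.2 ± 5.50 normalized reads (mean ± SD, n = 3 per group), and was not called (log2 fold change 0.51, SE 0.24, adjusted p = 0.0873). NR1I3 (CAR) had 0 or 1 read in a library. Of the fatty acid receptors, PPARA (−0.06) and PPARD (0.03) were not called. PPARG had a log2 fold change of 0.12 with an adjusted p of 0.0468, and of 12 alternatives only the replicate block kept that call (adjusted p up to 0.137).

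RORA and NR1D1 belong to the clock receptors, which activate and repress the clock gene ARNTL through the same DNA element. RORA, on chromosome 15 from 60780483 to 61521502, had 42.2, 48.9 and 52.5 normalized reads in control and 73.7, 84.0 and 59.9 in PELP1-KD. The KD libraries were higher and more scattered (log2 fold change 0.59, SE 0.19, adjusted p = 0.0113). The RORA call was lost without replicate 1 of control or replicate 2 of PELP1-KD (adjusted p up to 0.0623). NR1D1 (REV-ERBα) rose from 600 ± 8.05 to 696 ± 59.2 normalized reads (mean ± SD, n = 3 per group), with a log2 fold change of 0.21 (adjusted p = 0.0125) that was not called without replicate 3 of PELP1-KD (adjusted p = 0.0715). NR1D2 (REV-ERBβ) had a log2 fold change of 0.01 (adjusted p = 0.917), and RORB had 0 reads.

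NR5A2 (LRH-1) activates bile acid and cholesterol genes, and SHP represses the LRH-1 protein by binding to it. NR5A2 RNA rose from 1833 ± 32.0 to 2132 ± 92.9 normalized reads (mean ± SD, n = 3 per group), with a log2 fold change of 0.22 (adjusted p = 0.000424). NR5A1 (SF-1), its paralog of steroid-producing tissues, lies on chromosome 9 from 127243515 to 127269699. It was near the lower limit of what could be tested, with 9.17, 10.5 and 9.54 normalized reads in control and 17.4, 19.8 and 18.0 in PELP1-KD. The groups did not overlap, and the change of 0.91 on the log2 scale had a wide interval (SE 0.33, 95% interval −0.02 to 1.83, adjusted p = 0.0281). That call was kept in 5 of 12 alternatives. It was lost with DESeq2, without the low-count filter and without any control replicate or replicate 2 or 3 of PELP1-KD (adjusted p up to 0.148). NR6A1 (GCNF), on the same strand from 127284703 to 127533576, had a log2 fold change of 0.10 (adjusted p = 0.261).

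None of the steroid hormone receptors was called. NR3C1, the glucocorticoid receptor, had 1729 ± 48.2 normalized reads in control and 1712 ± 80.0 in PELP1-KD (SD, n = 3 each; log2 fold change −0.01, 95% interval −0.15 to 0.12, adjusted p = 0.812). NR3C2, the mineralocorticoid receptor, had a log2 fold change of −0.18 (adjusted p = 0.233). The estrogen receptor genes were at the limit of detection: ESR1 had 1 read in all 6 libraries together, in replicate 2 of PELP1-KD, and ESR2 had 0 to 4 reads in a library. PGR, the progesterone receptor, had 0 to 2. Likewise NR4A1, NR4A2 and NR4A3, immediate early genes that signals switch on within a short time, were not called, with log2 fold changes of 0.06, 0.07 and 0.09. NR4A1 was at 804 ± 26.4 normalized reads in control, and NR4A3 at 11.3 ± 2.19, where the 95% interval of the change ran from −1.04 to 1.21. The tailless-like receptors NR2E1 and NR2E3 had 3 to 16 and 0 to 2 reads in a library. NR2E1 had 5, 3 and 8 reads in control and 11, 8 and 16 in PELP1-KD, and was called higher without a filter, without replicate 3 of control and without replicate 2 of PELP1-KD, but not in the other fits that tested it, DESeq2 included.

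The 18 tested receptors that were not called included 14 with at least 100 normalized reads. Among these 14 the log2 fold changes ran from −0.18 to 0.24, and their 95% intervals from −0.53 to 0.54 at the widest, so changes of 2-fold lay outside the interval of each. Several receptor genes are neighbours in the genome. NR1D1 (chromosome 17 from 38249037 to 38256973, minus strand) overlaps the end of THRA (from 38218446 to 38250120, plus strand), and both rose, by 0.21 and 0.33 on the log2 scale, with reads counted by strand. NR1D2, THRB and RARB lie within a short stretch of chromosome 3, with starts at 23986751, 24158645 and 25469754, and of these only THRB was called, although the differences between them were not tested.

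Of the coregulators that nuclear receptors recruit, a list compiled for this comparison held 15 tested coactivators, 6 higher and 3 lower, with a median log2 fold change of 0.09. Called in either direction were 9 of the 15, beside 53.6% of all tested genes (26.8% higher and 26.8% lower). PPARGC1B (PGC-1β), a coactivator of the estrogen-related receptors, rose from 420 ± 29.0 to 730 ± 55.6 normalized reads (mean ± SD, n = 3 per group), or by 0.80 on the log2 scale (adjusted p = 2.38e-08). NCOA7 rose by 0.50 and MED1, the Mediator subunit that contacts ligand-bound receptors, by 0.33. KAT2B, an acetyltransferase, fell by 0.28. Of 11 corepressor genes, 2 were higher and 4 lower, with a median of 0.005. TBL1XR1 (0.26) and TBL1X (−0.24), paralogous subunits of the NCoR and SMRT complex, went in opposite directions, GPS2 of the same complex rose by 0.17, and NRIP1 (RIP140) fell by 0.15. The largest change of the corepressor list was in HR, a rare gene outside the naming rule that was added with its reads known. HR fell by 0.92 (adjusted p = 0.0178 from edgeR), with 30, 30 and 36 reads in control and 8, 15 and 22 in PELP1-KD.

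Known targets of each receptor were listed in the same way, and no list was tested as a set. Over all 109 tested target genes, 43 were higher and 30 lower, so that 67.0% were called, beside 53.6% of all tested genes (26.8% in each direction). These shares of all genes are the background for each list below. The 135 coregulators and targets together had a median log2 fold change of 0.05. Of 10 tested FXR targets, 8 were lower and 0 higher, with a median of −0.67, where 26.8% of all tested genes were lower and 26.8% higher. KNG1, a kininogen, fell from 4092 ± 131 to 2077 ± 83.4 normalized reads (mean ± SD, n = 3 per group; log2 fold change −0.98). FGF19, the hormone that represses bile acid synthesis, fell by 0.71, and OSTBETA (SLC51B), a subunit of the bile acid exporter, by 0.62. ABCB4, the phospholipid exporter of bile, fell by 0.24, a call lost without replicate 1 of control (adjusted p = 0.0634). The largest change of that list was in a rare gene, FETUB, which the naming rule leaves out and which was picked on seeing its reads, with 28, 33 and 26 reads in control and 1, 0 and 2 in PELP1-KD. Several of these targets are also hepatocyte genes, and the hepatocyte marker sum given above was lower in the same libraries. Whether that relates to the fall of these targets was not tested.

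PXR and CAR targets went the other way, with 8 of 12 tested genes higher and 0 lower and a median of 0.43, beside the same background of 26.8% in each direction. CYP2B6, a drug-metabolizing enzyme, rose from 103 ± 5.44 to 442 ± 1.78 normalized reads (mean ± SD, n = 3 per group; log2 fold change 2.10, SE 0.09, adjusted p = 1.65e-13). CYP3A5 rose by 0.82, the drug exporter ABCB1 by 0.52 and the transporter ABCC3 by 0.48. Counting was set to use fractions for reads of several places or genes, at a mapping quality of 2 or more. How this bore on CYP genes with close paralogs was not tested, so these values are less certain. Of the receptors that this list is named for, NR1I2 was rare and not called, and NR1I3 had 2 reads over all libraries, as given above. The part of these receptors in the changes was not tested.

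LXR targets held 2 higher and 5 lower genes of 10 tested, with a median of −0.16. SREBF1, the regulator of fatty acid synthesis, fell by 0.59, the sterol exporters ABCG8 and ABCA1 by 0.56 and 0.42, and PLTP, a phospholipid transfer protein, rose by 0.42. Of 14 PPAR targets 7 were higher and 1 lower, with a median of 0.18. CREB3L3 rose by 0.89, and CPT1A, an enzyme of fatty acid oxidation, by 0.35, while FABP1, a fatty acid binding protein, fell by 0.34. The largest change of the PPAR list was in VNN1, a rare gene outside the naming rule that was added with its reads known. VNN1 rose by 0.99 (adjusted p = 0.0028 from edgeR), with 20, 18 and 16 reads in control and 33, 29 and 34 in PELP1-KD. ERR targets, mostly mitochondrial genes, held 5 higher and 0 lower genes of 10, in each case by little: IDH3A by 0.25, COX5B by 0.17, CYCS by 0.16 and ATP5B by 0.14, beside a list median of 0.13. Of the ERR list 50.0% was called in either direction, less than the 53.6% of all tested genes. The ERR list holds the receptor ESRRA itself and shares ACADM and PDK4 with the PPAR list, so these counts are not separate from each other.

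**Figure D4:**
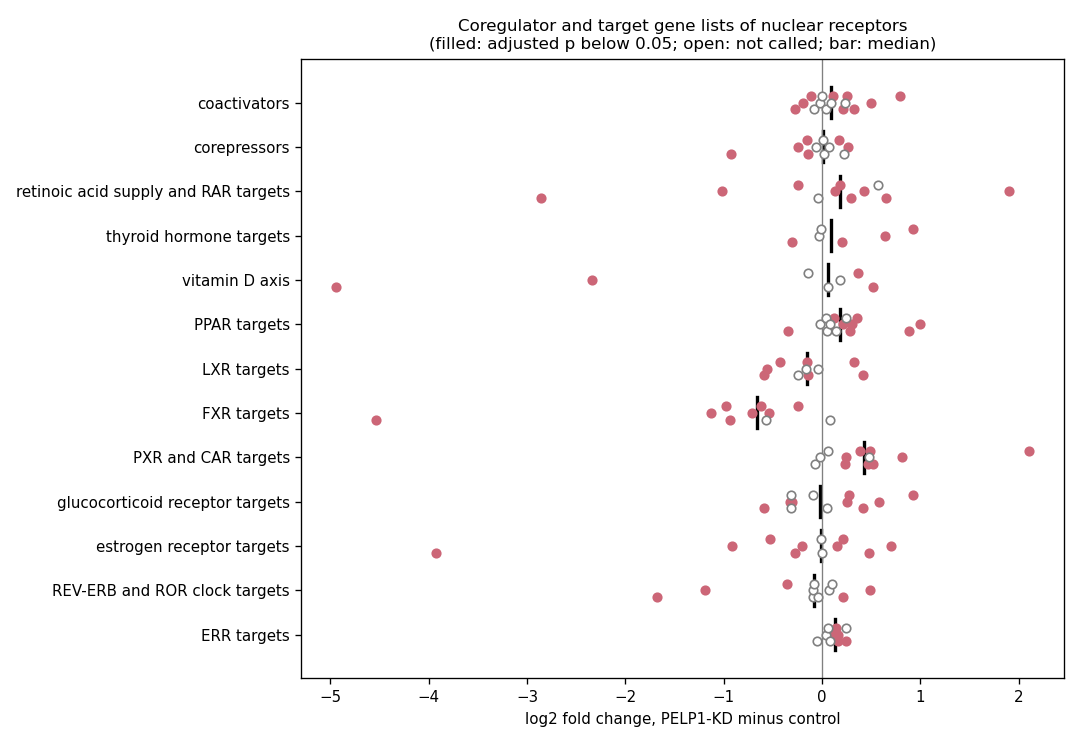
Log2 fold change (PELP1-KD minus control, x axis) of each tested gene in the 13 coregulator and target lists. Filled points have an adjusted p below 0.05, open points do not, and bars are list medians. FXR targets lie mostly to the left (median −0.67), PXR and CAR targets mostly to the right (median 0.43), and the other medians lie between −0.16 and 0.19.

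In the retinoic acid list, 6 of 11 tested genes were higher and 3 lower (median 0.19), with large changes in opposite directions within it. CYP26A1, which degrades retinoic acid and is itself a known target of retinoic acid receptors, rose from 144 ± 5.44 to 538 ± 13.0 normalized reads (mean ± SD, n = 3 per group; log2 fold change 1.90, SE 0.08, adjusted p = 1.58e-13). Its paralog CYP26B1 fell from 725 ± 10.4 to 357 ± 16.0 (log2 fold change −1.02, adjusted p = 1.33e-10). STRA6, which takes up retinol, fell by 2.86 on the log2 scale, and ALDH1A1, which makes retinoic acid, rose by 0.65. For vitamin D, 2 of 7 tested genes were higher and 2 lower (median 0.06). GC, the vitamin D-binding protein of plasma, fell by 4.94 on the log2 scale, LRP2, which takes that protein up, rose by 0.51, and CYP27B1, which makes the active hormone, had 0.36 (adjusted p = 0.0450), not called with DESeq2, without replicate 2 or 3 of control, or without replicate 1 or 3 of PELP1-KD (adjusted p up to 0.217). CYP24A1, the best known VDR target, lies outside the naming rule and was added with its reads known, at 17, 12 and 18 reads in control and 2, 4 and 2 in PELP1-KD (adjusted p = 0.000563), the opposite direction to VDR itself.

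Thyroid hormone targets held 3 higher and 1 lower gene of 6 (median 0.09), with DIO1, a deiodinase, up by 0.64, ME1 up by 0.20 and KLF9 down by 0.31. Glucocorticoid receptor targets held 5 higher and 3 lower genes of 12 (median −0.02). FKBP5 fell by 0.59 and DUSP1 by 0.32, and CEBPD and TSC22D3 rose by 0.58 and 0.41. KLF9 and PCK1 are in both the thyroid hormone list and the glucocorticoid receptor list. PCK1, a rare gene outside the naming rule that was added with its reads known, had the largest change of each. PCK1 rose by 0.93 (adjusted p = 0.0110 from edgeR), with 18, 12 and 14 reads in control and 27, 20 and 28 in PELP1-KD. Estrogen receptor targets held 4 higher and 5 lower genes of 11 (median −0.01) in cells with almost no reads of ESR1 and ESR2. CXCL12, a chemokine, had 313 ± 23.7 and 20.2 ± 4.91 normalized reads (mean ± SD, n = 3 per group; log2 fold change −3.93, adjusted p = 3.80e-14), IGFBP4 fell by 0.91 and CA12 by 0.53, and TFF1 rose by 0.70. Clock targets of the REV-ERB and ROR receptors held 2 higher and 3 lower genes of 11 (median −0.08). BHLHE40 rose by 0.49 and CRY1 by 0.22, and ARNTL had −0.36 (adjusted p = 0.0347), not called with DESeq2, without replicate 1 or 2 of control, or without replicate 3 of PELP1-KD. The largest changes of this list were in PER3 (−1.68, adjusted p = 9.46e-07) and BHLHE41 (−1.19, adjusted p = 6.18e-05), rarer clock genes that the naming rule leaves out and that were picked on seeing their values.

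The upstream sequence of genes in these results was searched for the receptor half-sites AGGTCA and AGTTCA, exact and on both strands, in the 250 bases before each start of the RefSeq promoter table (GRCh38.p14). AGGTCA was present in 12.1% of all 35116 windows and in 15 of the 94 windows of receptor genes, and AGTTCA in 8.80% and in 11 of 94. Either was present in 19.7% of all windows and in 26 of 94 (27.7%), which belonged to 17 of the 40 receptor genes in the table. Since a gene can have several windows, this count of genes cannot be set beside the share of windows. A direct repeat of AGTTCA with 5 bases between, the spacing that RAR and RXR dimers bind, was in 3 of all windows (0.00854%), in no receptor gene and in CYP26A1. With either half-site at each place, such a repeat was in 5 of all windows (0.0142%) and in 0 windows of receptor genes. These shares are a description and no test of CYP26A1. NR0B2, VDR, HNF4G, NR2F6 and NR4A2 are not in the promoter table. The windows of 2 receptors that fell, NR2F1 and RXRA, and of CYP26A1 are shown with half-sites in capitals. No rule chose these genes, and ESRRG, which fell more than RXRA, is not shown. NR2F1 (chr5:93582972-93583221, plus strand, first start) has 1 half-site, which begins 39 bases before the start, in a window of 52.4% GC. The window of its second start also has 1 half-site, which begins 148 bases before that start. RXRA (chr9:134326205-134326454, plus strand, first start) has none in a window of 89.2% GC. CYP26A1 (chr10:93073643-93073892, plus strand, second start) has the repeat, read on the other strand as TGAACT, beginning 90 and 79 bases before the start, while the window of its first start has 0 half-sites. A match of letters is a description and not a bound site, and no match says only that these letters are not in the window.
NR2F1: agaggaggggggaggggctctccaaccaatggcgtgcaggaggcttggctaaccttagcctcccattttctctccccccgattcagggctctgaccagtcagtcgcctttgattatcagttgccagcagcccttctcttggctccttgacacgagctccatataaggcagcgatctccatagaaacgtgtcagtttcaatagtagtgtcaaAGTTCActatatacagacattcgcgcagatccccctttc
RXRA: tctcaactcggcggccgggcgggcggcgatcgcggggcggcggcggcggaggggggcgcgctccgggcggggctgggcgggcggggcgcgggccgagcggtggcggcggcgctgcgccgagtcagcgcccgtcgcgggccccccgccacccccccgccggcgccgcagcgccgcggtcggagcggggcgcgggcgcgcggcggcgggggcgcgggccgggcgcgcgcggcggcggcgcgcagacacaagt
CYP26A1: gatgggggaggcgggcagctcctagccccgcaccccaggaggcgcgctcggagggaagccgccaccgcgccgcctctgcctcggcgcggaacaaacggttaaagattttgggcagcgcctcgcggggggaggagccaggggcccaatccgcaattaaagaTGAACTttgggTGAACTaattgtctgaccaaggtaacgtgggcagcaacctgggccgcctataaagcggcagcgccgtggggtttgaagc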

How the data were processed

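RNA-seq of Hep3B cells gave 6 libraries, 3 control and 3 PELP1-KD, grouped by their labels. The methods of the study state alignment to hg19 with TopHat2 and counting with HTSeq. The submitters' processing notes name HISAT2, SAMtools and featureCounts, and the file headers give featureCounts 1.5.0-p1, run with strand, a mapping quality of 2 or more, and fractions for reads of several places or genes. The authors deposited estimated counts per gene, without normalization, and 10.6% to 13.3% of a library's values had decimals, so all were rounded here.

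Fold changes came from edgeR 4.0.16 (TMM normalization, filterByExpr, robust glmQLFit and glmQLFTest, R 4.3.3), fitted on all 14537 tested genes with Benjamini-Hochberg adjustment over them and a threshold of 0.05. To obtain an SE, the size of a log2 fold change was divided by the root of its F statistic, and 95% intervals use 4 degrees of freedom. The median SE was 0.0632. The steps were tested on simulated counts. RPKM used TMM-scaled library sizes and the exon bases of the deposited annotation. OSTalpha and OSTBETA of that annotation stand for SLC51A and SLC51B. The tables held 0 columns of other samples.

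The rule for the receptors uses symbols and no measured value, but it, the role groups, the coregulator and target lists and the markers were drawn up with earlier results of these data known, so no list is independent support. Values in every library are given for receptors with an adjusted p below 0.05 and an absolute log2 fold change of at least 0.5, and for the 5 with the highest control RPKM. Of each list up to 4 called genes are named, by largest change, among those reaching 100 normalized reads in 1 of the groups. Any other list gene is marked, and some items are not reported here. Members were matched to the promoter table by symbol, and 40 of 45 were found.

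To check whether replicate numbers pair libraries, deviations from the group mean were correlated across the 6370 genes above a log2 CPM of 5 (genes are no independent replicates). Same-numbered libraries gave 0.336, 0.247 and 0.666, each above 0.1. Control 2 with PELP1-KD 1 had 0.418 and control 1 with PELP1-KD 2 had 0.244, so these values do not settle how replicates 1 and 2 pair. The replicate number, which comes from the labels, was still used as a block in an alternative. Replicates of a group differed by more than sampling noise (chi-square per degree of freedom of 1.94 to 7.02), so none was counted as a copy. Further alternatives were edgeR with upper-quartile normalization or with the size factors of DESeq2, the test of DESeq2 1.42.0 itself, dropping the low-count filter, requiring 10 reads in all libraries, an adjusted p below 0.01, and leaving out each library.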

Additional observations from a re-analysis of the deposited data

How the results depend on the processing

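All 17 called receptors kept their direction in the 12 alternative fits, and 12 of them were called in every fit. The exceptions were PPARG, NR5A1, NR2F2, RORA and NR1D1, described in the report with the libraries that decide them. Of the 18 receptors not called, 14 were called in no fit, and RXRB, RARG, NR1I2 and HNF4G were called in 1 fit each that left out a library. The number called higher was 8 to 11 and the number called lower 5 or 6 with each library left out, and 3 or 4 changed at least 2-fold. The count of 4 came without a low-count filter, without replicate 3 of control (NR2E1 added in both) and without replicate 2 of PELP1-KD, where RXRB and NR2E1 were added and NR2F1 lay just under the line (−0.998). Called higher at an adjusted p below 0.01 were 7 receptors in place of 11. With the replicate number as a block, PELP1 was called lower (−0.0831, adjusted p = 0.0106), and no call of a receptor or named list gene changed. When single libraries were left out PELP1 ranged from −0.10 to −0.040, and it was called without replicate 3 of PELP1-KD. RARB changed sign without a filter (0.00191) and with the replicate block (0.00614), and ranged from −0.11 to 0.098 when single libraries were left out. In the same fits NR3C1 lay between −0.037 and 0.025, RARA between −0.012 and 0.054, NR1H3 between −0.068 and 0.0049, NR1D2 between −0.028 and 0.043, NR4A2 between −0.15 and 0.20 and NR4A3 between −0.21 and 0.43, and none was called. Of 49 named list genes, 46 were called in all fits, with CYP27B1, ABCB4 and ARNTL as the exceptions. The causes of these differences were not tested. Another scaling moved the median of all genes by at most −0.00434 on the log2 scale. Low read numbers limit NR5A1, RORA, NR1I2, NR4A3 and RXRB, and the 10 untested receptors. For RXRB, with exons on several sequences, few reads need not mean little RNA.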
